A study of Mus musculus with 46 samples.

Results

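The miRNAs mmu-miR-99a-5p, mmu-miR-99b-5p, mmu-miR-100-5p, mmu-miR-125a-5p and mmu-miR-125b-5p were followed in stored mouse heart, liver and brain. They were chosen by name, as the 5p arms of the miR-99/100 and miR-125 families, and are 5 of the 1881 miRNAs on the array. All 5 were among the 815 miRNAs that were analysed because they were detected on at least 5 arrays. The question of the study was how miRNA profiles change while tissue, and with it the RNA, decays. Of the analysed arrays, 7 held heart, 6 liver and 8 brain RNA from storage at 4 °C, and 8 of each tissue held RNA from storage at room temperature (RT), 45 in all.

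All groups came from male C57BL6 mice of an Il1a knock-out strain, so that no animal with a working Il1a gene was measured. Each organ had been cut into 8 pieces that were kept for 0, 1, 3, 6, 12, 24, 48 or 96 h, as the labels give the times (the methods have another time in place of 12 h), and each array held RNA of 1 piece. The heart piece of 0 h at 4 °C was set aside for low quality, and the liver pieces of 6 h and 96 h at 4 °C were not analysed here. The arrays of a tissue and a temperature lay on 1 slide and held pieces of 1 animal. Per the methods, heart, liver and brain of a temperature came from the same animal, so that the arrays held tissue of 2 animals. Within a tissue, the slide, the animal and the temperature therefore cannot be told apart, and p-values measure the spread between pieces rather than between animals.

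miRNAs are short RNAs that guide Argonaute proteins to messenger RNAs, mainly by pairing of their seed, bases 2 to 8 from the 5′ end. The members sit in 3 conserved gene clusters, each of which joins a miR-99/100 gene, a let-7 gene and a miR-125 gene. miR-125b is known as an abundant miRNA of neurons and of developing blood cells, miR-125a as its close relative, and the miR-99/100 family as a regulator of mTOR signalling.

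The mature sequences, from RefSeq on GRCm38.p6, are shown because near-identical letters bear on what each probe can tell apart, with the seed in capitals.
mmu-miR-99a-5p: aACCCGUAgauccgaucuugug
mmu-miR-100-5p: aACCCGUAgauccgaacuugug
mmu-miR-99b-5p: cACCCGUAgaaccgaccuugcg
mmu-miR-125a-5p: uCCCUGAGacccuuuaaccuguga
mmu-miR-125b-5p: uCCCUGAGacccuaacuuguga
Counted from the 5′ end, miR-99a-5p and miR-100-5p differed at 1 base (U16A). miR-99a-5p and miR-99b-5p differed at 4 bases (A1C, U11A, U16C and U21C). The miR-125 members shared their first 13 bases and their last 5, with lengths of 24 bases for miR-125a-5p and 22 for miR-125b-5p. miR-99b-5p had 14 G or C bases, 63.6% of its length, whereas the other members were at 50%.

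Among the 1679 mature miRNAs of the RefSeq table, the seed ACCCGUA occurred in 3, which were the miR-99/100 members. The seed CCCUGAG occurred in 5, namely the miR-125 members, miR-351-5p, miR-6367 and miR-6394. The relatives of the miR-10 family have seeds that begin with the same letters as those of the miR-99/100 members:
mmu-miR-10a-5p: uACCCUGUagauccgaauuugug
mmu-miR-10b-5p: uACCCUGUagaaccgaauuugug
Each member was measured by 2 probes of 15 spots. Cross-hybridization between members, or of fragments of other RNAs to these probes, was not tested.

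All genes lie on the plus strand. Mir99a (chr16:77598940-77598961 for the mature sequence) overlapped no other gene, and the cluster that joins it to Mirlet7c-1 and Mir125b-2 (chr16:77646279-77646300) spanned 47.4 kb. Mir100 (chr9:41531437-41531458) and Mir125b-1 (chr9:41581940-41581961) lie within the host gene Mir100hg, in a cluster with Mirlet7a-2 of 50565 bases. Mir99b (chr17:17830194-17830215) and Mir125a (chr17:17830817-17830840) lie within Spaca6 with Mirlet7e between them, all in 683 bases. miR-125b-5p is made from both of its genes with the same sequence, so that its signal cannot be divided between the chr16 and chr9 clusters.

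Signals are given as log2 values after variance stabilizing normalization (VSN), which scales arrays to each other. The arrays detected 268 to 798 miRNAs, with a summed signal of 153088 to 541770 units. The tissue labels held on their defining miRNAs. The lowest liver value of miR-122-5p (11.14) exceeded its highest value outside liver (7.34), and the same held for miR-1a-3p in heart (13.60 against 7.81) and miR-124-3p in brain (12.93 against 4.57). The RNA integrity number (RIN), which runs from 10 for intact to 1 for degraded RNA, was under 6 on 11 arrays, over 6 on 33 and 6.0 on the liver array of 1 h at RT. One array stood apart, that of liver at 0 h and 4 °C. It had a RIN of 9.1, yet 376 of 815 miRNAs (46.13%) were lower on it than on every other liver array of 4 °C, and the members lay 1.43 to 2.21 below the median of those arrays. Values without it are given beside the liver results.

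miR-99a-5p, miR-100-5p, miR-125a-5p and miR-125b-5p were detected on 45 of 45 arrays. miR-99b-5p was detected on 42. The arrays without it were the liver arrays of 0 h at 4 °C and of 48 h and 96 h at RT, whose values are small signals near the background.

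With intact RNA (RIN over 6), the members were lowest in liver, and 4 of 5 were higher in brain than in heart. The values, of 13 heart, 6 liver and 14 brain arrays, are given for each miRNA on its own scale, since levels of different probes cannot be set against each other. In bulk tissue, fewer cells of a type and less RNA per cell cannot be told apart.

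For miR-125b-5p, the lowest, median and highest values were 10.91, 11.22 and 11.83 in heart, 6.81, 8.73 and 8.98 in liver, and 12.60, 13.00 and 13.90 in brain. The tissues did not overlap, with liver below heart and heart below brain. The limma fit with the slide as a random block put brain 4.55 ± 0.22 (SE) above liver, or 23.4-fold (adjusted p = 2.73e-19), the largest tissue difference among the members. Brain lay 1.73 ± 0.18 above heart (adjusted p = 1.3e-10), and liver 2.81 ± 0.23 below heart on the log2 scale (-2.81, adjusted p = 8.66e-13).

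For miR-125a-5p, the lowest, median and highest values were 6.00, 6.83 and 7.85 in heart, 4.49, 5.83 and 6.00 in liver, and 9.06, 9.36 and 9.93 in brain. Brain was separate from both other tissues, and 1 liver array, that of 12 h at 4 °C, reached the lowest heart array. Its excess in brain over heart was the largest of the family members, 2.61 ± 0.18 on the log2 scale or 6.12-fold (limma, adjusted p = 2.69e-15). The difference of liver from heart was the smallest of them, -1.33 ± 0.22 (adjusted p = 6.16e-06).

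For miR-99b-5p, the gene neighbour of miR-125a, the lowest, median and highest values were 4.77, 5.42 and 6.02 in heart, 2.48, 3.83 and 4.10 in liver, and 6.19, 6.83 and 7.46 in brain. The tissues did not overlap and stood in the same order as for miR-125b-5p. Brain was 1.45 ± 0.17 above heart, or 2.73-fold (limma, adjusted p = 3.1e-09).

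For miR-100-5p, the values were 7.65, 8.16 and 8.65 in heart, 3.85, 5.84 and 6.09 in liver, and 8.27, 9.03 and 9.76 in brain (lowest, median and highest). Heart and brain overlapped, with liver below both. Brain was 0.85 ± 0.20 above heart, or 1.80-fold (limma, adjusted p = 0.000262), and liver differed from heart by -2.57 ± 0.25 (adjusted p = 7.47e-11).

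miR-99a-5p, 1 base away from miR-100-5p, had values of 9.34, 9.74 and 10.37 in heart, 5.60, 7.39 and 7.76 in liver, and 8.85, 9.50 and 10.01 in brain (lowest, median and highest). Heart and brain overlapped over most of their ranges. The difference of brain from heart was -0.26 ± 0.18 and did not pass the test (limma, adjusted p = 0.208). It was -0.31 with scaling to the 75th percentile, -0.62 with quantile normalization and -0.60 with normexp background correction, each past the threshold, and 0.01 with the heart array of 0 h at 4 °C included. Liver differed from heart by -2.60 ± 0.23 (adjusted p = 9.53e-12).

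Of the members, 4 of 5 were called higher in brain than in heart, against 47.1% of the 815 miRNAs. 5 of 5 were lower in liver than in heart, against 44.8%, and 5 of 5 were higher in brain than in liver, against 58%. The median differences of all miRNAs were 0.44, -0.60 and 1.12 in these comparisons, and those of the members 1.45, -2.57 and 3.42. With quantile normalization miR-100-5p was no longer called between brain and heart (0.10), and miR-125a-5p no longer between liver and heart (-0.27; with normexp -0.17). Within storage at 4 °C, 14 of the 15 differences were called as well. At RT liver had only 1 array with RIN over 6, that of 0 h, so the RT arrays alone show the direction only. It was unchanged for all 15 differences. Without the liver array that stood apart, the differences of liver from heart were -1.16 to -2.50 and those of brain from liver 2.05 to 4.23, all called. With the animal, or the animal and the time point, as a block, 14 of the 15 differences were called. Taken singly, both probes of each member gave the same sign in both comparisons with heart (log2 scaled to the 75th percentile), and were furthest apart for miR-100-5p in brain against heart, with 1.32 and 0.67.

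Markers of other cells of the tissues were measured as well. Their signals are given before scaling, over all arrays of each tissue, those with degraded RNA included. Only detected markers enter the sums. The summed signal of 4 blood cell miRNAs was 4931 to 35010 units in heart, 156.3 to 2966 in liver and 425 to 2479 in brain. That of 2 endothelial miRNAs was 3661 to 10260, 81.18 to 1903 and 632.3 to 1904 units, and that of 4 smooth muscle and fibroblast miRNAs 759.3 to 2069, 24.12 to 484.3 and 73.38 to 207.2 units. All 3 lists were highest in heart, and all of their markers were detected on some arrays of each tissue. Their part in the tissue differences was not tested.

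**Figure D1:**
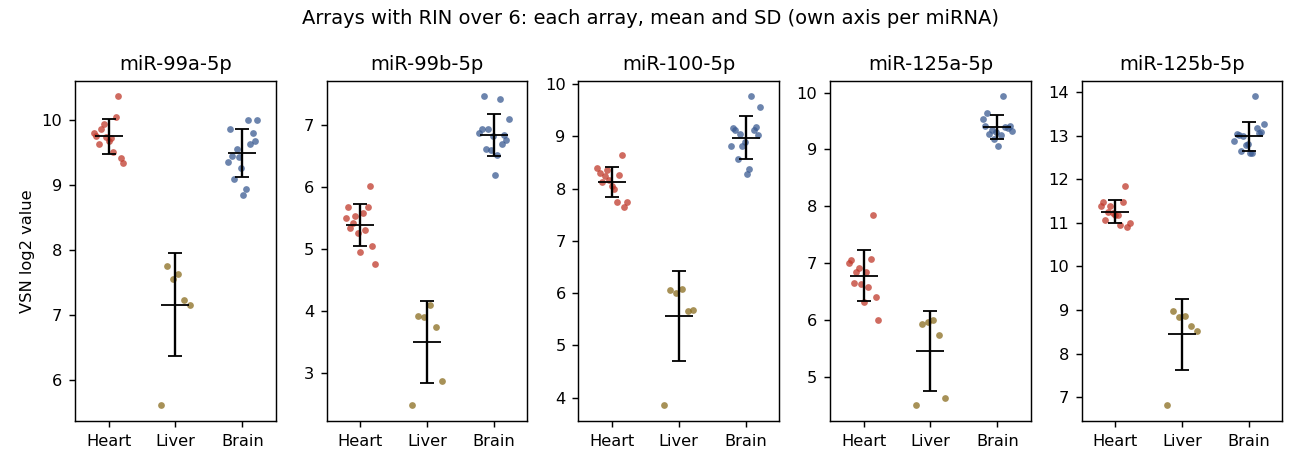
Log2 VSN values of the members on the arrays with RIN over 6, by tissue. Each point is an array, bars are the mean ± SD (13 heart, 6 liver and 14 brain arrays), and each miRNA has its own vertical axis. Liver was lowest for all 5 members, and brain exceeded heart for 4 of them, while for miR-99a-5p the medians were 9.74 in heart and 9.50 in brain.

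Since the members of a family differ in so few bases, the difference of their log2 values on the same array (a log2 ratio) was followed across tissues. A factor common to all signals of an array does not change it, apart from the bend that VSN gives to low values. Its level depends on the probes, so that its changes are given. Of 18 comparisons of 6 ratios between tissues, 17 passed permutation tests over arrays after adjustment.

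The log2 ratio of miR-99a-5p over miR-100-5p was 1.63 ± 0.12 (SD, n = 13) in heart, 1.59 ± 0.10 (n = 6) in liver and 0.52 ± 0.13 (n = 14) in brain. It ran from 1.40 to 1.78 in heart, from 1.48 to 1.75 in liver and from 0.24 to 0.72 in brain, so that brain lay apart from both other tissues, which overlapped. The heart arrays were at 1.54 ± 0.09 (n = 7) at 4 °C and 1.73 ± 0.07 (n = 6) at RT, and the brain arrays at 0.53 ± 0.13 (n = 8) and 0.51 ± 0.15 (n = 6). The change from heart to brain was -1.11 (2-sided permutation test, p = 1e-05, the smallest that the resamples can give; adjusted p = 3e-05). Liver and heart differed by -0.03 (exact permutation test, p = 0.559, adjusted p = 0.559), by -0.06 without the liver array that stood apart (exact, adjusted p = 0.286), and by 0.30 with quantile normalization (exact, adjusted p = 0.0123).

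For miR-125a-5p over miR-125b-5p the log2 ratio was -4.48 ± 0.25 (n = 13) in heart, -2.99 ± 0.51 (n = 6) in liver and -3.60 ± 0.21 (n = 14) in brain. Over both temperatures together it was lowest in heart and highest in liver, where the 1 intact piece from RT gave -3.90 and those from 4 °C gave -3.06 to -2.32. The brain arrays were at -3.50 ± 0.13 (n = 8) at 4 °C and -3.73 ± 0.23 (n = 6) at RT. Liver thus lay above brain at 4 °C, while the RT liver piece lay within the range of brain at RT (-3.96 to -3.35) and below its mean. Brain exceeded heart by 0.88 (permutation test, adjusted p = 3e-05) and liver exceeded heart by 1.49 (exact permutation test, adjusted p = 5.53e-05). Brain differed from liver by -0.61 (exact permutation test, adjusted p = 0.00134). The array at -2.32 was the one that stood apart, and without it liver was at -3.12 ± 0.44 (n = 5), 1.36 above heart, and brain differed from liver by -0.48 (exact, adjusted p = 0.000175 and 0.00528). Without it 17 of the 18 comparisons passed as well.

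Neighbours in 1 cluster differed as well. The log2 ratio of miR-99b-5p over miR-125a-5p, whose genes lie in 683 bases, was -1.38 ± 0.15 in heart, -1.95 ± 0.11 in liver and -2.55 ± 0.19 in brain. The tissues differed by -1.16 (brain from heart), -0.57 (liver from heart) and -0.60 (brain from liver), with adjusted p of 3e-05, 9.48e-05 and 4.22e-05 in permutation tests, the last 2 of them exact. miR-125b-5p is made in both the chr16 and the chr9 cluster, so that its ratios to miR-99a-5p and miR-100-5p are not ratios within 1 cluster. For miR-99a-5p (chr16) over miR-125b-5p, brain differed from heart by -1.99 (permutation test, adjusted p = 3e-05) and from liver by -2.20 (exact permutation test, adjusted p = 4.22e-05). For miR-100-5p (chr9) over miR-125b-5p, the same differences were -0.88 (permutation test, adjusted p = 3e-05) and -1.13 (exact permutation test, adjusted p = 4.22e-05). Liver differed from heart by 0.21 and 0.25 in these 2 ratios (exact permutation tests, adjusted p = 9.48e-05 and 0.000133).

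**Figure D2:**
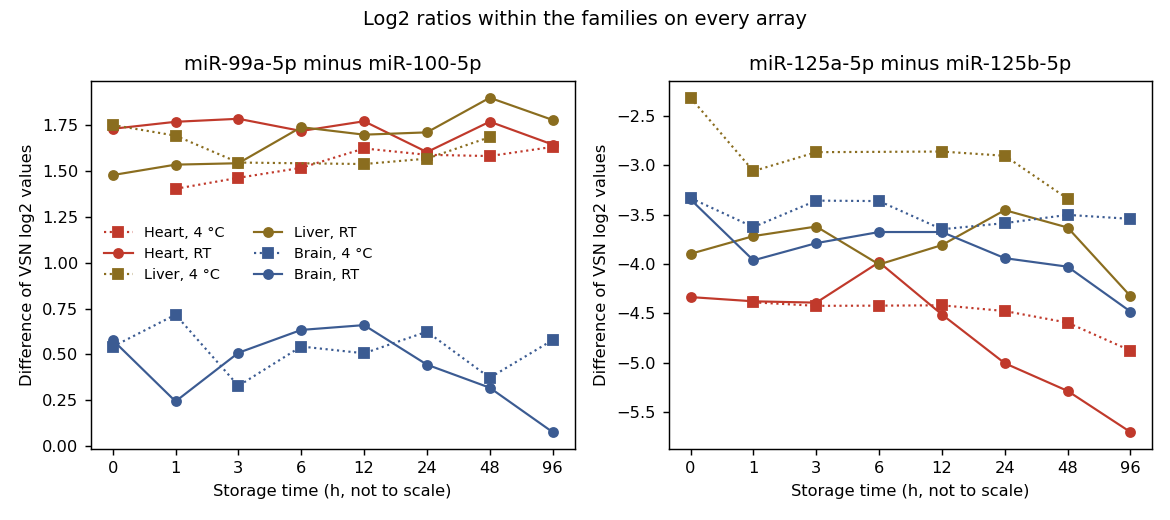
Log2 ratios of miR-99a-5p over miR-100-5p and of miR-125a-5p over miR-125b-5p on each of the 45 arrays, against storage time in h, by tissue and temperature. For miR-99a-5p over miR-100-5p, the brain arrays with RIN over 6 (0.24 to 0.72) lie below those of heart and liver (1.40 to 1.78), and for miR-125a-5p over miR-125b-5p the RT arrays of 96 h lie below those of 0 h in each tissue.

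During storage at 4 °C the members' values passed no test. The log2 change per 24 h, as the mean of the 3 tissues, was between -0.03 and 0.12, and 0 of 5 members were called, as were 6.26% of all miRNAs. By slide, the slopes were -0.16 to -0.02 in heart, 0.16 to 0.46 in liver and -0.19 to -0.08 in brain, with 0 of 5 called against 0%, 2.94% and 0%. The liver slopes rest on the array of 0 h that stood apart. Without it they were -0.13 (miR-125a-5p) to 0.05 (miR-125b-5p), and the means of the 3 tissues -0.13 to -0.02, with 0 of 5 called in both. For miR-99a-5p in heart at 4 °C the values of 1, 3, 6, 12, 24, 48 and 96 h were 9.80, 9.75, 9.64, 9.86, 9.94, 9.74 and 9.68. RIN values stayed at 8.1 or higher in heart and at 7.3 or higher in brain. In liver at 4 °C the piece of 48 h had a RIN of 3.4, and the others were at 7.4 or higher. On this degraded piece miR-99a-5p (7.84), miR-100-5p (6.16) and miR-125b-5p (9.07) had their highest values of the liver arrays of 4 °C, with the others at 5.60 to 7.76, 3.85 to 6.09 and 6.81 to 8.98. miR-99b-5p (3.91) and miR-125a-5p (5.73) lay within the range of the others.

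At RT all 5 members fell. The change of the VSN value per 24 h, as the mean of the heart, liver and brain slopes in the limma fit, was -0.77 ± 0.07 (SE) for miR-125a-5p, -0.69 ± 0.07 for miR-99b-5p, -0.65 ± 0.08 for miR-99a-5p, -0.63 ± 0.08 for miR-100-5p and -0.54 ± 0.08 for miR-125b-5p. Adjusted p ran from 2.86e-12 (miR-125a-5p) to 8.33e-08 (miR-125b-5p). 5 of 5 members were called, against 38.9% of the 815 miRNAs called lower, and the median slope of all miRNAs was 0.07. The slope at RT minus that at 4 °C was -0.66 to -0.74, with 5 of 5 called against 28%. Since each slide held 1 animal and 1 temperature, this difference is one between slides. Without the liver array that stood apart it was -0.52 to -0.64, with 5 of 5 called. With no scaling between arrays the slopes at RT were -0.17 to -0.43, with 4 of 5 called against 10.2% called lower. The median of all miRNAs was then 0.40. Without the RT arrays of 48 h and 96 h, 2 of 5 members were called, miR-99b-5p and miR-125a-5p.

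The fall was steepest in liver, where RIN values were 7.1, 6.0, 4.1, 2.8, 2.7, 2.7, 2.4 and 2.3 from 0 to 96 h. Over these times miR-99a-5p had values of 7.15, 7.94, 8.06, 7.63, 7.10, 5.87, 4.04 and 3.30. miR-100-5p had values of 5.67, 6.41, 6.52, 5.90, 5.40, 4.16, 2.15 and 1.52. Both were highest at 3 h, when the RIN was 4.1, and lowest at 96 h.

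miR-125b-5p in liver had values of 8.53, 9.35, 9.31, 8.87, 8.42, 7.24, 6.12 and 5.54 over the same times, and miR-125a-5p had 4.63, 5.63, 5.69, 4.86, 4.61, 3.79, 2.49 and 1.21. miR-99b-5p had 2.87, 4.07, 4.00, 3.35, 3.10, 1.55, 0.19 and -0.69. None of the 5 lay below its 0 h value at 1, 3 or 6 h, and all lay below it at 24, 48 and 96 h. In signal units before scaling, miR-99a-5p rose from 72.9 at 0 h to 259.2 at 6 h and was 23.6 at 96 h.

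The liver slopes at RT were -1.30 ± 0.15 for miR-100-5p, -1.23 ± 0.14 for miR-99a-5p, -1.19 ± 0.13 for miR-99b-5p, -1.07 ± 0.11 for miR-125a-5p and -0.97 ± 0.13 for miR-125b-5p per 24 h, all called (limma, adjusted p at most 5.53e-08), against 34% of all miRNAs. They were called under every normalization tried, from -0.54 to -0.95 with no scaling and from -0.19 to -0.76 with normexp, and in each fit that left out 1 array.

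In heart at RT miR-125a-5p had 6.84, 6.58, 7.07, 7.85, 6.39, 6.00, 5.97 and 4.59 from 0 to 96 h, and miR-99a-5p had 9.72, 9.51, 10.05, 10.37, 9.42, 9.34, 9.83 and 8.60. Both were highest at 6 h and lowest at 96 h, when the RIN was 2.2. The slopes of miR-125a-5p (-0.60 ± 0.11 per 24 h) and miR-99b-5p (-0.47 ± 0.12) were called, 2 of 5 members against 18.8%. Those of miR-99a-5p, miR-100-5p and miR-125b-5p were -0.27, -0.25 and -0.22 and did not pass, and with no scaling they turned to 0.07, 0.10 and 0.12. Without the array of 96 h, 0 of 5 were called, and without the liver array that stood apart, 3 of 5.

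In brain at RT miR-125a-5p had values of 9.26, 9.93, 9.39, 9.38, 9.40, 9.32, 8.45 and 6.95, and miR-125b-5p had 12.60, 13.90, 13.18, 13.05, 13.08, 13.26, 12.48 and 11.44. The values up to 24 h lay at or above that of 0 h, and both miRNAs were lower at 48 h and 96 h, with RIN values of 5.5 and 3.3. 4 of 5 slopes were called against 17.8%, from -0.64 ± 0.11 for miR-125a-5p to -0.40 ± 0.13 for miR-99b-5p. miR-100-5p had -0.34 ± 0.15 (limma, adjusted p = 0.0562), which turned to 0.01 with no scaling. Without the array of 96 h, 0 of 5 were called, and without the liver array that stood apart 5 of 5.

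The slopes at RT differed between tissues. Each tissue at RT lay on 1 slide, so tissue and slide cannot be told apart in these differences. Their SE and p-values measure the spread between pieces. Liver fell faster than heart by 1.05 ± 0.21 per 24 h for miR-100-5p (-1.05, limma, adjusted p = 0.000205), and for the members the difference was between -0.47 (miR-125a-5p) and -1.05, with 5 of 5 called against 19.4%. Liver minus brain was between -0.43 (miR-125a-5p) and -0.96 (miR-100-5p), with 5 of 5 called against 20.7%. Brain and heart slopes differed by -0.22 to 0.07, with 0 of 5 called against 0.859%. With normexp background correction, which compresses low signals, the differences of miR-99b-5p (0.10 and 0.07) and miR-125a-5p (0.11 and 0.24) from heart and brain turned positive. That of miR-125a-5p from brain then passed the test in the opposite direction (adjusted p = 0.0233), and 4 of the 10 differences of liver were still called lower, those of miR-99a-5p and miR-125b-5p.

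**Figure D3:**
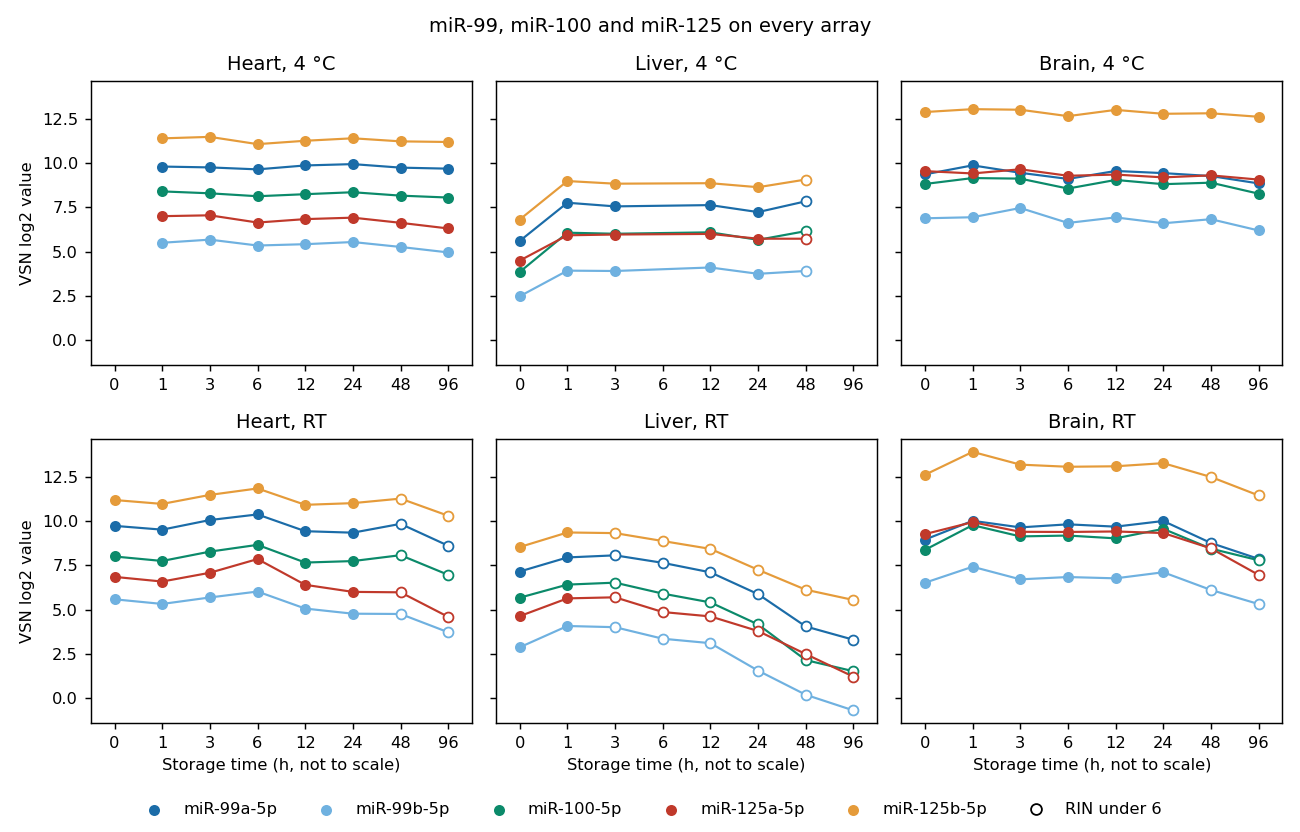
Log2 VSN values of the members against storage time in h, by tissue and temperature, with each point 1 array and open circles for RIN under 6. The values at 4 °C show no called change, and at RT the liver values decline from 3 h on and lie below their 0 h values from 24 h on, while heart and brain reach their lowest values at 96 h.

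**Figure D4:**
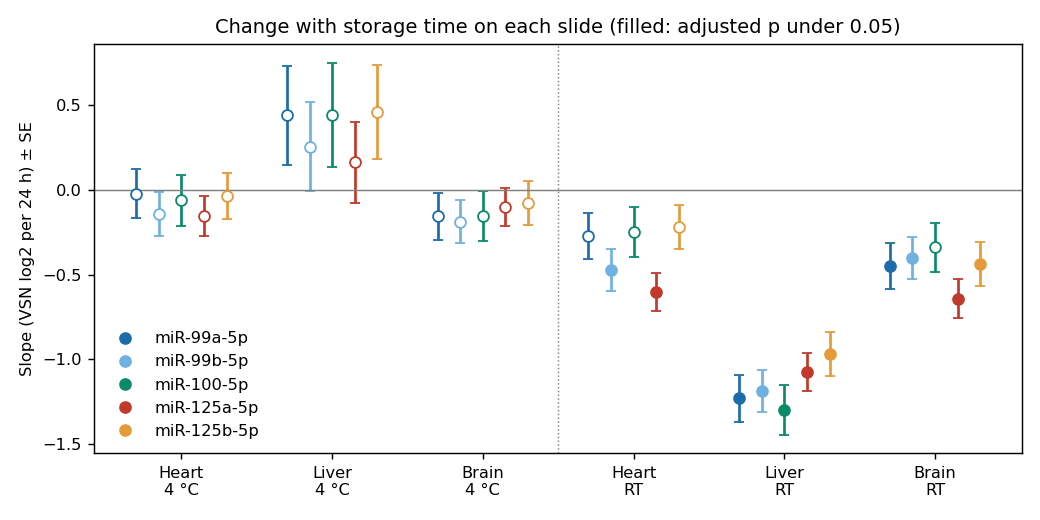
Change of the log2 VSN value per 24 h of storage for each member and slide, with bars of ± SE and filled symbols for adjusted p under 0.05. The liver slopes at RT, -0.97 to -1.30, lie below those of heart (-0.22 to -0.60) and brain (-0.34 to -0.64), and no slope at 4 °C is filled. With no scaling between arrays the heart slopes of miR-99a-5p, miR-100-5p and miR-125b-5p and the brain slope of miR-100-5p turn positive.

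With storage at RT, the log2 ratio between the miR-125 members changed. That of miR-125a-5p over miR-125b-5p went from -4.34 at 0 h to -5.70 at 96 h in heart, from -3.90 to -4.33 in liver and from -3.35 to -4.48 in brain. In liver it was -3.72, -3.62, -4.01, -3.81, -3.46 and -3.63 at 1, 3, 6, 12, 24 and 48 h, so that only the arrays of 6 h and 96 h lay below that of 0 h. In heart those of 24 h and 48 h were at -5.01 and -5.29, and in brain at -3.94 and -4.03. Its change was -0.23 per 24 h (permutation of arrays within slides, p = 6e-05, adjusted p = 0.00036 over 6 ratios), and with normexp it was -0.03 (adjusted p = 0.716). The ratio of miR-99a-5p over miR-125b-5p changed by -0.11 per 24 h over the 3 RT slides together (permutation, adjusted p = 0.0199). In liver it was -1.41 to -1.23 up to 24 h, and -2.07 and -2.24 at 48 h and 96 h. From 0 h to 96 h it went from -1.46 to -1.69 in heart and from -3.66 to -3.58 in brain. That of miR-99a-5p over miR-100-5p changed by -0.02 (permutation, adjusted p = 0.383), and went from 1.73 at 0 h to 1.64 at 96 h in heart, from 1.48 to 1.78 in liver and from 0.58 to 0.08 in brain.

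In relation to the RIN over the 45 arrays, with the slide as a block, all 5 members were higher with higher integrity. The change per RIN unit was 0.30 ± 0.07 (SE) for miR-125a-5p (limma, adjusted p = 0.000141), 0.25 ± 0.07 for miR-99b-5p, 0.20 ± 0.08 for miR-99a-5p, 0.19 ± 0.08 for miR-100-5p and 0.17 ± 0.07 for miR-125b-5p, so that 5 of 5 were called against 26.1%. The median slope of all miRNAs was -0.04. With no scaling, 0 of 5 were called, the slopes of miR-99a-5p, miR-100-5p and miR-125b-5p turned to -0.01, -0.02 and -0.05, and the median of all was -0.22. Over the arrays with RIN over 6, 0 of 5 were called, with slopes of -0.28 to -0.04.

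The relation rested on few arrays. Without the RT arrays of 96 h, 0 of 5 were called. Without the liver array that stood apart the slopes were 0.20 to 0.33, with 5 of 5 called. In 45 fits that each left out 1 array, 39 kept all 5 calls, and 2 members were called without the heart array of 96 h at RT, the brain array of 96 h at RT or the liver array of 1 h at RT. The RIN fell with time on the RT slides, so that integrity and storage time cannot be told apart there.

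Degraded pieces (RIN under 6) were set against intact ones (6 or higher) on the same RT slide. In heart, the 2 degraded arrays had 5.97 and 4.59 for miR-125a-5p, and the 6 intact ones 6.00, 6.71 and 7.85 (lowest, median and highest), without overlap. The difference was -1.51 ± 0.62 or 2.85-fold (limma, adjusted p = 0.0443). It was the 1 of 5 members called in heart, against 12%. The differences of miR-99a-5p, miR-100-5p and miR-125b-5p in heart were -0.52, -0.49 and -0.45, did not pass, and turned to 0.54, 0.57 and 0.61 with no scaling, when the median of all miRNAs moved from 0.07 to 1.05. Before scaling, the signal of miR-99a-5p was 617.2 to 1288 units on the intact and 829.4 to 1580 on the degraded heart arrays.

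In liver 4 of 5 members were called lower on the 6 degraded than on the 2 intact arrays, against 22.5%, with differences of -1.35 to -1.76. miR-100-5p differed by -1.76 ± 0.72 (limma, adjusted p = 0.0321), and miR-125a-5p, with -1.35 ± 0.62, was the exception (adjusted p = 0.0519). In brain 1 of 5 was called, against 8.59%. This was miR-125a-5p, with 8.45 and 6.95 on the 2 degraded arrays and 9.26, 9.38 and 9.93 on the 6 intact ones, a difference of -1.74 ± 0.62 (adjusted p = 0.0312). With no scaling, 0 of 5 were called in each tissue, and the median of all miRNAs moved from 0.57 to 1.38 in liver and from -0.19 to 0.67 in brain. Without the array of 96 h, 0 members were called in heart and 0 in brain. In liver, 0 were called without the intact array of 1 h and 1 without that of 0 h. Without the liver array that stood apart 5 of 5 were called in liver.

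The difference between degraded and intact RNA did not pass a test between tissues for any member, with 0 of 5 called for heart minus liver, heart minus brain and liver minus brain, against 1.23%, 0% and 5.03%. Over all 14 liver arrays, the exact Wilcoxon-Mann-Whitney test of RIN 6 or lower against RIN over 6 called 0 of 5 members, against 27.7%. The differences of the means were -0.45 to -1.21, with miR-125a-5p the lowest (exact p = 0.0593, adjusted p = 0.135). With scaling to the 75th percentile that test called 4 of 5, against 10.6% of all miRNAs called lower. Without the array that stood apart the differences were -0.78 to -1.40, with 0 of 5 called and miR-125a-5p at an exact p of 0.0186 (adjusted p = 0.0667).

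The let-7 miRNAs that share the clusters were followed next. At RT 3 of 3 partners fell as the mean of the 3 tissues, against 38.9% of all miRNAs. The fall was 0.73 for let-7a-5p, 0.62 for let-7c-5p and 0.80 for let-7e-5p on the log2 scale per 24 h. In heart the slopes were -0.27 to -0.23 with 0 of 3 called. They were -1.73 to -1.16 in liver and -0.46 to -0.42 in brain, with 3 of 3 called in each. let-7e-5p, which lies between Mir99b and Mir125a, was 2.91 higher in brain than in heart (limma, adjusted p = 5.22e-15). 3 of 3 were called higher in brain than in heart, against 47.1%, and 3 of 3 lower in liver than in heart, against 44.8%. Mature let-7a-5p and let-7c-5p also come from genes outside these clusters.

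The opposite arms of the same hairpins did not move together. Of 6, 5 were analysed, and miR-100-3p was detected on 2 arrays. At RT 3 rose, namely miR-125b-1-3p by 1.15 ± 0.15, miR-125a-3p by 0.89 ± 0.17 and miR-99b-3p by 0.62 ± 0.12 per 24 h, all past the limma test (adjusted p 4.12e-08, 1.02e-05 and 1.31e-05), while 43.8% of all miRNAs were called higher. miR-99a-3p (-0.37) and miR-125b-2-3p (-0.41) fell.

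miR-125a-3p, the passenger arm of the hairpin that gives miR-125a-5p, was detected on 45 of 45 arrays. In liver at RT it had values of 2.72, 3.81, 5.32, 5.28, 5.55, 7.64, 8.91 and 8.79 from 0 to 96 h, while miR-125a-5p went from 4.63 to 1.21. Its signal before scaling was 2.794 units at 0 h and 1126 at 96 h. In heart at RT its values were 3.29 (0 h), 6.53 (6 h), 4.62 (24 h) and 8.39 (96 h). The signals for both arms of 1 hairpin thus ran in opposite directions at RT in liver, with slopes of 1.34 ± 0.29 and -1.07 ± 0.11. The same held in heart, with 0.85 ± 0.29 and -0.60 ± 0.11. The authors propose that in degraded RNA, labelled fragments of other RNAs can bind array probes. Whether such fragments add to the miR-125a-3p signal was not tested. In brain at RT miR-125a-3p had 3.42, 4.14, 6.45, 6.48, 6.07, 5.93, 5.77 and 7.14 from 0 to 96 h, a slope of 0.50 ± 0.29 that did not pass (limma, adjusted p = 0.14), beside -0.64 ± 0.11 for miR-125a-5p. miR-99b-3p, miR-99a-3p, miR-125b-1-3p and miR-125b-2-3p were detected on 25, 16, 8 and 16 arrays, so that most of their values lie near the background.

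Of the relatives by sequence, miR-351-5p was detected on 0 of 45 arrays. As the mean of the 3 tissues, miR-10a-5p and miR-10b-5p fell at RT by 0.50 and 0.54 on the log2 scale per 24 h. Both were called, against 38.9% of all miRNAs called lower. In heart their slopes were -0.14 to -0.07 with 0 of 2 called, and in liver -1.03 to -1.02 with 2 of 2 called. They differed from the members between tissues, with brain below heart by -3.46 for miR-10a-5p and -3.44 for miR-10b-5p (limma, adjusted p = 2.45e-14 and 1.03e-16). Of the 14 intact brain arrays, miR-10a-5p was detected on 3 and miR-10b-5p on 0, so that most of their brain values lie near the background. The sizes of both differences therefore depend on the background, while their direction does not. On the 8 brain arrays of RT they were detected on 2 and 0, so the brain part of their fall is not resolved.

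As a description across arrays that share tissues and slides, the values of miR-99b-5p and miR-26a-5p had a Pearson r of 0.99 over 45 arrays, those of miR-100-5p and let-7i-5p 0.99, of miR-125b-5p and miR-181c-5p 0.99, of miR-125a-5p and miR-7a-1-3p 0.99, and of miR-99a-5p and miR-24-3p 0.98. These were the most alike of the other analysed miRNAs. miR-181c-5p was detected on 32 and miR-7a-1-3p on 35 of the 45 arrays, so that some of their values lie near the background. After the mean of each slide was taken off, let-7c-5p was the most alike for miR-99a-5p (0.98) and miR-125b-5p (0.98), miR-107-3p for miR-100-5p (0.99), and miR-26a-5p for miR-99b-5p (0.98) and miR-125a-5p (0.96). Among the members, miR-99a-5p and miR-100-5p were the closest pair by this measure (0.99), and miR-100-5p and miR-125a-5p the least close (0.91). Over the VSN values with the slide means left in, r was lowest for miR-99a-5p and miR-125a-5p (0.78).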

How the data were processed

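Total RNA was hybridised to 1-colour Agilent mouse miRNA arrays. The authors deposited the scanner output of Feature Extraction (10.10.1.1 per the file headers), with background-subtracted signal intensity per miRNA, and a table of log2 values after VSN. Intensities were normalized here by VSN over 45 arrays; over all 46 the result differed from the deposited log2 table by at most 0.0104. The array headers name the mm9 build, while coordinates above are GRCm38.p6. Samples were grouped by tissue and temperature from the labels. limma 3.58.1 (R 4.3.3) was fitted to all 815 miRNAs detected on at least 5 arrays, with Benjamini-Hochberg adjustment and a threshold of 0.05. RIN and time fits held the slide as a block, tissue fits as a random block (correlation 0.0197). Log2 ratios were tested by permutation, exact or with 100000 resamples. Scripts were tested on simulated data. The number of arrays limits the precision. Members and lists were chosen with earlier results of these data known. All members, all miRNAs of the lists and, per member, the 3 most correlated miRNAs under each measure were eligible for naming. Alternatives were other scalings (75th percentile, none, quantile, normexp), detection minimums, adjustments, array sets and blocks.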

Additional observations from a re-analysis of the deposited data

Results flagged for a closer look

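The liver array of 0 h at 4 °C was the lowest of its group for all 5 members, by a gap to the next array that made up 0.728 of the range for miR-99a-5p, 0.78 for miR-99b-5p, 0.786 for miR-100-5p, 0.82 for miR-125a-5p and 0.808 for miR-125b-5p. Among the liver arrays with RIN over 6 it was set apart for miR-99a-5p (0.716), miR-100-5p (0.81) and miR-125b-5p (0.79). Of 35 groups tested by Dixon's rule 8 passed, all through this array. Chance passes about 1 in 20 single groups, but these groups share arrays and the members move together. The 8 passes are therefore not independent.

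The slope per 24 h at RT minus that at 4 °C differed from 0 in limma for miR-99a-5p (-0.7394), miR-99b-5p (-0.6624), miR-100-5p (-0.7063), miR-125a-5p (-0.7424) and miR-125b-5p (-0.6597).

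The slope at RT differed between liver and heart for miR-99a-5p (-0.9589), miR-99b-5p (-0.7175), miR-100-5p (-1.05), miR-125a-5p (-0.4692) and miR-125b-5p (-0.7495), and between liver and brain by -0.7826, -0.7875, -0.9602, -0.432 and -0.5322 in the same order. As each tissue at RT was on its own slide, these are differences between slides as well.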

How the results depend on the processing

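Which results moved is given here by setting, as counts of members called unless a slope is named. With the authors' own VSN table all results kept their direction and their side of the threshold. With scaling to the 75th percentile 5 heart slopes at RT were called, and of the contrasts of degraded and intact RNA 3 in heart, 2 in brain and 4 in the test of liver quality. With no scaling between arrays 0 were called for the RIN, for the heart and brain slopes at RT and for the 3 contrasts of degraded and intact RNA. There the RIN slopes of miR-100-5p, miR-125b-5p and miR-99a-5p turned to -0.016, -0.046 and -0.014, the heart slopes to 0.096, 0.12 and 0.072, the brain slope of miR-100-5p to 0.0073, the heart contrasts to 0.57, 0.61 and 0.54, and the liver quality differences to 0.18, 0.55 and 0.31. Quantile normalization gave 5 heart slopes, 2 heart contrasts and 1 in liver quality, against 29.9%, 18.9% and 4.29% of all miRNAs called lower. It turned the ratios of miR-99a-5p over miR-100-5p and over miR-99b-5p between liver and heart to 0.30 and 0.037 and the change of the former at RT to 0.0079. Normexp gave 5 heart slopes, 5 differences of RT slopes between tissues in place of 10 (1 of them, miR-125a-5p in liver against brain, the other way), 3 heart and 4 brain contrasts and 3 in liver quality. Of all miRNAs, 23.4% were then called lower in the heart slope, and 11% and 16% in the slopes of liver minus heart and liver minus brain. The shares called lower were 18.3% and 19.5% in the heart and brain contrasts and 10.6% in liver quality. Normexp also turned the slope differences of miR-125a-5p (0.11 and 0.24) and miR-99b-5p (0.10 and 0.071), and the changes at RT of the ratios of miR-99a-5p over miR-99b-5p (-0.25) and of miR-100-5p over miR-125b-5p (0.067).

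With all 46 arrays 2 RIN slopes, 1 brain slope and 0 contrasts in heart, liver and brain were called, and miR-99a-5p in brain against heart turned to 0.010. Bonferroni adjustment left 1 RIN, 1 heart and 1 brain slope, 3 slope differences and 0 contrasts in each tissue. Over RIN over 6 alone, 0 RIN slopes were called, with -0.24, -0.040, -0.28, -0.22 and -0.055 for miR-100-5p, miR-125a-5p, miR-125b-5p, miR-99a-5p and miR-99b-5p. Without brain arrays 2 and without heart arrays 1 RIN slope was called, and with log2(hours + 1) 1 brain slope. Leaving out any 1 of the 45 arrays gave 2 to 5 RIN slopes, 0 to 3 heart slopes and 0 to 5 brain slopes. For the contrasts of degraded and intact RNA, single RT arrays were left out only among the 2 degraded ones of heart, the 2 degraded ones of brain and the 2 intact ones of liver. Each such fit left 1 array in that class. Without the heart array of 96 h the contrasts of miR-100-5p, miR-125b-5p and miR-99a-5p were 0.061, 0.034 and 0.10, and without that of 48 h -1.05, -0.93 and -1.13. Without the RT arrays of 96 h 0 RIN, heart and brain slopes were called. Without those of 48 h too, the counts were 0, 0 and 0, with 2 at RT and 2 for RT minus 4 °C. The RIN slopes of miR-100-5p, miR-125b-5p and miR-99a-5p were then -0.0079, -0.028 and -0.033, and the brain slopes 0.46, 0.044, 0.50 and, for miR-99b-5p, 0.19. The causes were not tested. Blocking the tissue fit by animal, or by animal and time, the pairing that the methods give, left 14 and 14 of 15 tissue differences called, with the direction of each unchanged. The arrays of 48 h and 96 h, the dropping of the liver array of 0 h at 4 °C, the block by animal, the leaving out of single arrays in slopes, the changes of ratios at RT and the slope differences between tissues were added after the data were seen.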

Other observations

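The heart array of 0 h at 4 °C that was set aside detected 215 miRNAs, with 4 of 5 members among them. Its values in the deposited table were 6.00 for miR-99a-5p, 2.46 for miR-99b-5p, 4.70 for miR-100-5p, 4.13 for miR-125a-5p and 7.76 for miR-125b-5p. On the other heart arrays of 4 °C these miRNAs were at 9.67 to 9.97, 4.997 to 5.713, 8.09 to 8.43, 6.35 to 7.08 and 11.10 to 11.51.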
